A study of Mus musculus with 36 samples.

Results

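Genes of macrophage recruitment and of the colony-stimulating factors were followed through mammary tumor growth in 4T1 and Py230 intraductal models. The 10 genes were chosen by name and for their function, not by a cut-off on their values, and with earlier results of these data known. They comprise 3 surface or lysosomal markers of macrophages and related myeloid cells (Adgre1, Cd68 and Itgam), 2 growth factors (Csf1 and Csf2), the receptor genes Csf1r and Csf2ra, the chemokines Ccl2 and Ccl7 and the chemokine receptor Ccr2. Of these, 9 had values among the 21650 genes of the deposited expression table. Csf2 had none and was therefore not analysed here beyond its average level.

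Monocytes leave the bone marrow and enter tissue through CCR2, the receptor for the chemokines CCL2 and CCL7. In the tissue, colony-stimulating factor 1 (CSF1, also named M-CSF) keeps monocytes and macrophages alive through the receptor CSF1R, which also binds IL-34, while granulocyte-macrophage colony-stimulating factor (GM-CSF, the product of Csf2) acts through an alpha chain made from Csf2ra and a shared beta chain. In mammary tumors of mice, the CSF1 and CCL2 routes are known as sources of tumor-associated macrophages.

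The libraries came from 12 groups with 3 libraries each. 4T1 cells, a luciferase-carrying metastatic mammary tumor line from BALB/c mice, were grown in BALB/c glands. Py230 cells, a line from spontaneous tumors of MMTV-PyMT transgenic C57BL/6 mice (the mouse mammary tumor virus promoter drives the polyoma middle T oncogene), were grown in C57BL/6 glands. Glands of both strains inoculated with Matrigel, the carrier of the cells, were the controls, and all 4 kinds were taken in week 1, 3 or 6 after inoculation (w p.i., weeks post-inoculation). All mice were lactating females inoculated through the teat after weaning, the age of each mouse is not in the labels, and some C57BL/6 mice of the study carried an NF-κB luciferase reporter without the labels telling which. A 4T1 against Py230 comparison therefore changes the cell line, the number of cells inoculated and the mouse strain together, and the Matrigel glands measure the strain alone.

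The deposited values are scores standardized within each library, each with mean 0 and SD 1 across its genes, and they place a gene among the other genes of the same library. Over 13567 genes with an average of at least 100 normalized counts, a step of 0.5 score units between genes went with a 2.62-fold step in the authors' mean count, which gives a rough idea of size and is not a calibration of fold changes. Sequencing depth is unknown from these scores, and the error of every value is the spread between libraries. Within groups, libraries had a Pearson r of 0.947 to 0.993 over all genes. Leukocytes were present in every group, as the pan-leukocyte gene Ptprc had mean scores of 1.05 to 1.76, and the 12 macrophage markers had mean scores of 1.18 to 1.78. In bulk tissue, fewer cells of a type and less RNA per cell cannot be told apart.

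Levels between genes can be compared only per length. The authors' mean normalized count is the same in their tables of all 3 time points for each of 55536 genes, and the tables do not list which libraries were averaged. Divided by the kilobases of exon (mm10, GENCODE M21), it was 1558 per kb for Cd68 (chr11:69664213-69666153, minus strand), which encodes a lysosomal protein of macrophages, and 1063 per kb for Csf1r, the gene of the CSF1 receptor. Adgre1, which encodes the macrophage surface protein F4/80 (chr17:57358691-57483527, plus strand), had 659 per kb. The next were Csf1 with 382 per kb (chr3:107741048-107760469, minus strand), Ccl7 with 367 per kb (chr11:82045712-82047525, plus strand), Csf2ra with 363 per kb (chr19:61223957-61228429, minus strand), Ccr2 with 362 per kb (chr9:124101950-124113557, plus strand) and Ccl2 with 287 per kb (chr11:82035571-82037453, plus strand). Itgam, which encodes the integrin chain CD11b of monocytes, macrophages and neutrophils (chr7:128062640-128118491, plus strand), had 90.4 per kb, and Csf2 (chr11:54247271-54249667, minus strand) had 4.04 per kb with a mean of 3.23 counts. All 10 are protein-coding. Itgam overlaps the gene model Gm49368 and Csf1r the microRNA gene Mir6983 on the same strand. Ccl2, Csf1r and Csf2 overlap Gm17268, Hmgxb3 and Gm12223 on the opposite strand. The reads of these genes are uncertain where the authors' counting could divide or drop them. Whether that counting used the strand is not given in the sources used here.

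Promoter sequences are shown for Csf1 and Itgam because these were the 2 genes that differed between 4T1 and Py230 tumors at 6 w p.i. Each is the RefSeq window (GRCm38.p6) from 250 bases before to 50 bases after the start site, in the direction of the gene, chr3:107760420-107760719 on the minus strand for Csf1 and chr7:128062390-128062689 on the plus strand for Itgam. Capitals mark matches to the motifs searched, which were the κB motif bound by NF-κB (here GGGA and TTCC with any 2 bases between them), GAGGAAG (the core bound by ETS factors such as PU.1) and TGANTCA (bound by AP-1) on both strands and TATAAA (the TATA box) on the strand of the gene.
Csf1: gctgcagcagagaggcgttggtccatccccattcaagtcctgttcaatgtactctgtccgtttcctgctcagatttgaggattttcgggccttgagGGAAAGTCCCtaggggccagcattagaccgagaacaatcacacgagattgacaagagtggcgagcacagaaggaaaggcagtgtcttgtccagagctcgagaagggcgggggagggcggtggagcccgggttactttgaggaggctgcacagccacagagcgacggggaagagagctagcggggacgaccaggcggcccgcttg
Itgam: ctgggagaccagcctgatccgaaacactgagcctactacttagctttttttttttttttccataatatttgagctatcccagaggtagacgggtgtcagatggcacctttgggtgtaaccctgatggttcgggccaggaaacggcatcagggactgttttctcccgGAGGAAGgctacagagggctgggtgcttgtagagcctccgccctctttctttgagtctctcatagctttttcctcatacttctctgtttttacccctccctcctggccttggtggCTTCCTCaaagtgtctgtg
The Csf1 window held 1 κB match, GGAAAGTCCC, which starts at position -154 from the start site, and 1.467% of 32851 mouse promoter windows held one. The Itgam window held ETS core matches at -84 and at 31, and 13.628% of all windows held at least one. The RefSeq set also held windows for Ccr2, Csf2, Cd68 and Csf2ra, of which Cd68 had 2 AP-1 matches (7.808% of all windows held one), Csf2ra had 2 ETS core matches, and Ccr2 and Csf2 had no match. None of the 6 windows held TATAAA, which 8.319% of all windows held. These matches describe letters and are not binding sites.

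In 4T1 compared to Py230 primary tumors, 4 of 9 genes were higher at 1 w p.i. (Ccr2, Itgam, Cd68 and Csf2ra), 5 did not pass the test and none was lower, while 19.4% of all genes differed and 11% were higher. In week 3, 5 of 9 were higher in 4T1 tumors (Itgam, Csf1r, Cd68, Adgre1 and Csf2ra), where 30.3% of all genes differed and 11.9% were higher, and all 9 had 4T1 libraries above Py230 libraries without overlap, as did 13.9% of all genes. In week 6, 2 of 9 were higher (Itgam and Csf1), a share near that of all genes, of which 40.8% differed and 24.1% were higher. The median difference of the 9 genes was 0.42 score units at 1 w p.i., 0.42 at 3 w p.i. and 0.071 at 6 w p.i., where the median over all genes was 0.0055, -0.011 and 0.036. All adjusted p-values are from limma, fitted on all 36 libraries and adjusted by the Benjamini-Hochberg method over 21650 genes, with a threshold of 0.05. For 1 gene alone, the lowest two-sided p that exact permutation of 3 and 3 libraries allows is 0.1.

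**Figure D1:**
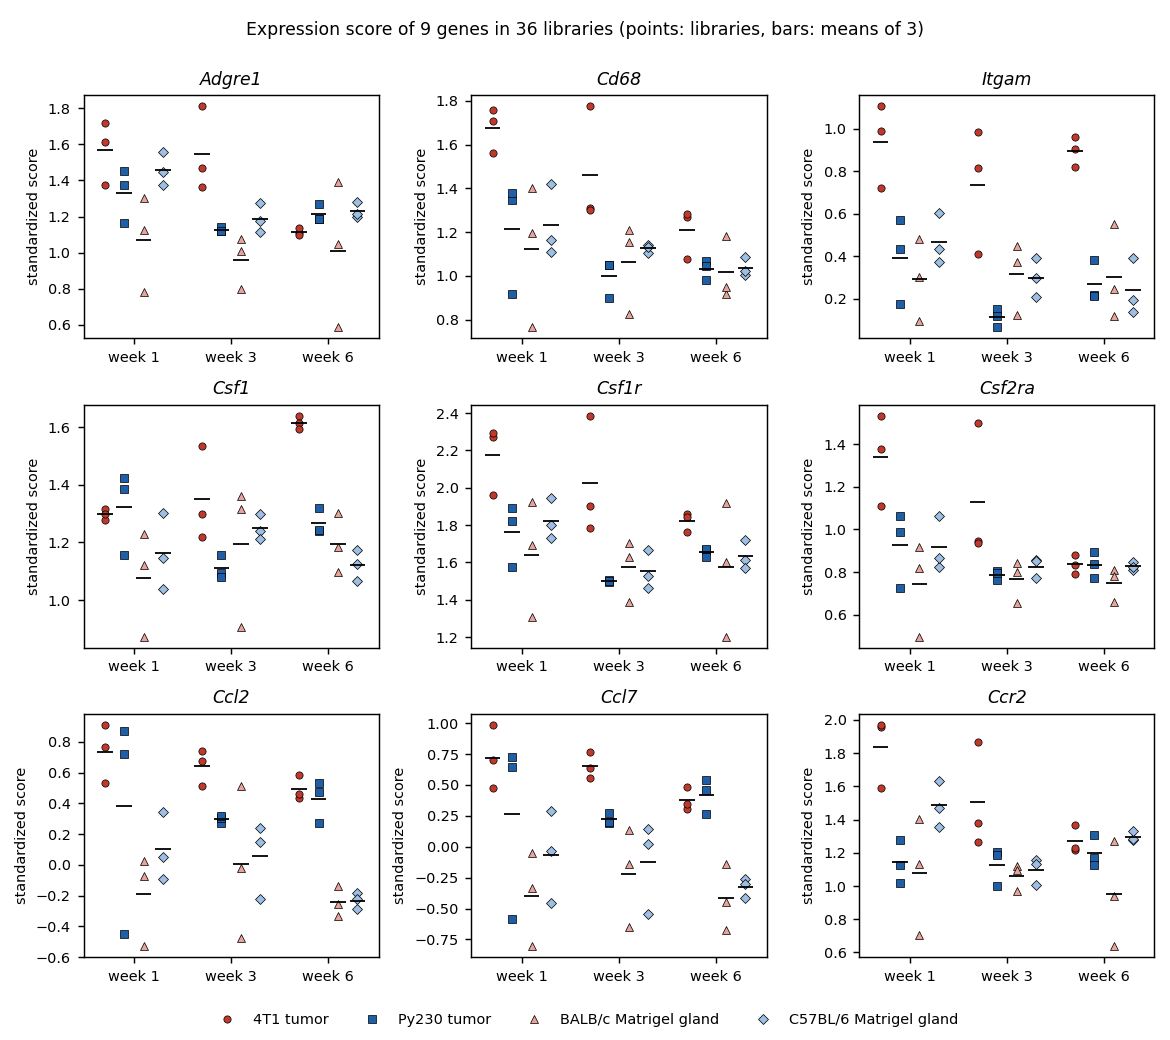
Standardized expression score (vertical axis) of 9 genes by week post-inoculation (horizontal axis), with 1 point per library and a bar at the mean of 3 libraries. The 3 Csf1 points of 4T1 tumors at week 6 sit from 1.59 to 1.64, above all other libraries of that gene, while Adgre1 is at 1.10 to 1.14 in the same libraries.

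Adgre1 had scores of 1.61, 1.37 and 1.72 in the 4T1 tumors at 1 w p.i. and of 1.17, 1.38 and 1.45 in the Py230 tumors. The groups overlapped and the difference of 0.24 ± 0.14 (SE) did not pass the test (adjusted p = 0.237, limma). At 3 w p.i. the 4T1 libraries had 1.81, 1.47 and 1.36 and the Py230 libraries 1.12, 1.14 and 1.12. All 4T1 values were above all Py230 values, and the difference was 0.42 ± 0.14 (adjusted p = 0.0239, limma). At 6 w p.i. the 4T1 libraries had 1.11, 1.10 and 1.14 and the Py230 libraries 1.18, 1.19 and 1.27, so each 4T1 value lay below each Py230 value, with a difference of -0.10 ± 0.14 that did not pass (95% interval -0.39 to 0.19). Fitted on the tumor libraries of that week alone, the lower Adgre1 was called (adjusted p = 0.0395, limma).

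Cd68 was higher in 4T1 tumors at 1 w p.i., with 1.76, 1.56 and 1.71 against 0.92, 1.35 and 1.38 and a difference of 0.46 ± 0.14 (adjusted p = 0.0212, limma). Its difference at 3 w p.i. was 0.46 ± 0.14 as well (adjusted p = 0.0125, limma), with 1.77, 1.31 and 1.30 in 4T1 and 0.90, 1.05 and 1.05 in Py230 tumors. By 6 w p.i. it was 0.18 ± 0.14, still without overlap but not past the threshold (adjusted p = 0.326, limma). Fitted on the tumor libraries of that week alone, Cd68 was called (adjusted p = 0.04, limma).

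Itgam was the only one of the 9 genes called higher in 4T1 tumors at all 3 time points. The 4T1 libraries had 1.10, 0.72 and 0.99 at 1 w p.i., 0.98, 0.81 and 0.41 at 3 w p.i. and 0.90, 0.96 and 0.82 at 6 w p.i. The Py230 libraries had 0.17, 0.43 and 0.57, then 0.07, 0.15 and 0.12, and then 0.22, 0.38 and 0.21. No Py230 value reached a 4T1 value of the same week, although replicate 3 of the 4T1 tumors at 3 w p.i. lay well below its group. The differences were 0.55 ± 0.13 (adjusted p = 0.00582, limma), 0.62 ± 0.13 (adjusted p = 0.000857, limma) and 0.62 ± 0.13 (adjusted p = 0.000397, limma). Fitted on the libraries of each comparison alone, Itgam was called at 6 w p.i. and not in week 1 or 3 (adjusted p = 0.0574 and 0.0874, limma).

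Among the receptors, Csf1r had scores from 1.20 to 2.39 over all libraries. It differed between the models by 0.41 ± 0.15 at 1 w p.i., where the 4T1 libraries (2.27, 1.96 and 2.29) lay above the Py230 libraries (1.57, 1.82 and 1.89) but the test just missed the threshold (adjusted p = 0.0554, limma). It passed with cyclic loess scaling (adjusted p = 0.0427, limma), with a robust line as scaling (adjusted p = 0.0445, limma) and without 4T1 replicate 2 (adjusted p = 0.0234, limma). At 3 w p.i. the values were 2.39, 1.90 and 1.79 against 1.51, 1.49 and 1.50, and the difference of 0.52 ± 0.15 passed (adjusted p = 0.01, limma). At 6 w p.i. the difference was 0.17 ± 0.15 (adjusted p = 0.41, limma). Fitted on the tumor libraries of that week alone, Csf1r was called (adjusted p = 0.0065, limma).

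Csf2ra, the alpha chain of the GM-CSF receptor, was higher in 4T1 tumors by 0.42 ± 0.12 at 1 w p.i. (adjusted p = 0.0157, limma) and by 0.34 ± 0.12 at 3 w p.i. (adjusted p = 0.0299, limma). The 4T1 libraries had 1.53, 1.11 and 1.38 and then 1.50, 0.95 and 0.94, so at 3 w p.i. replicate 1 stood above the other two. The Py230 libraries had 0.73, 0.99 and 1.06 and then 0.76, 0.81 and 0.79. In week 6 the difference was within -0.24 to 0.24 (95% interval), with both means at 0.84.

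Ccr2 had the largest difference of the 9 genes at 1 w p.i., with 1.96, 1.59 and 1.97 in 4T1 and 1.02, 1.13 and 1.28 in Py230 tumors. The groups were apart and the difference was 0.70 ± 0.15 (adjusted p = 0.00275, limma). It was 0.37 ± 0.15 at 3 w p.i. (adjusted p = 0.0626, limma) and 0.071 ± 0.15 at 6 w p.i. (95% interval -0.24 to 0.38). The changes of this difference from 1 to 3 w p.i. (-0.32 ± 0.21) and from 3 to 6 w p.i. (-0.30 ± 0.21) did not pass, and the change from 1 to 6 w p.i. was not tested.

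Csf1 was called between the tumors at 6 w p.i. and not before. At 1 w p.i. the 4T1 libraries had 1.28, 1.32 and 1.30 and the Py230 libraries 1.16, 1.38 and 1.42, a difference of -0.024 ± 0.097 (95% interval -0.22 to 0.18). In week 3 the 4T1 libraries had 1.54, 1.30 and 1.22, above the Py230 libraries with 1.10, 1.08 and 1.16, and the difference of 0.24 ± 0.097 missed the threshold (adjusted p = 0.0608, limma), but passed with cyclic loess or a robust line as scaling (adjusted p = 0.0437 and 0.0456, limma) and without 4T1 replicate 3 (adjusted p = 0.0338, limma). In week 6 the 4T1 libraries had 1.64, 1.61 and 1.59 and the Py230 libraries 1.32, 1.24 and 1.24, apart by 0.35 ± 0.097 (adjusted p = 0.00509, limma). In the order of the 12 group means, 4T1 tumors at 6 w p.i. were first for Csf1 and were separated without overlap from the second group, and for the 8 other genes with scores the first place was held by 4T1 tumors at 1 w p.i., each of which overlapped the next group.

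Ccl2 and Ccl7, neighbouring chemokine genes whose products both bind CCR2, were not called between the tumors at any time point. At 1 w p.i. Ccl2 had 0.77, 0.53 and 0.91 in 4T1 tumors and -0.45, 0.87 and 0.72 in Py230 tumors. Ccl7 had 0.70, 0.48 and 0.98 in 4T1 and -0.58, 0.73 and 0.64 in Py230 tumors. Py230 replicate 1 was far below the other two for both genes, and it was also the lowest of its group for the 7 other genes with scores. In week 3 all 4T1 libraries were above all Py230 libraries for Ccl2 (0.51 to 0.74 against 0.27 to 0.32) and Ccl7 (0.56 to 0.77 against 0.19 to 0.27), with differences of 0.34 ± 0.23 and 0.43 ± 0.26 (adjusted p = 0.28 and 0.215, limma).

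**Figure D2:**
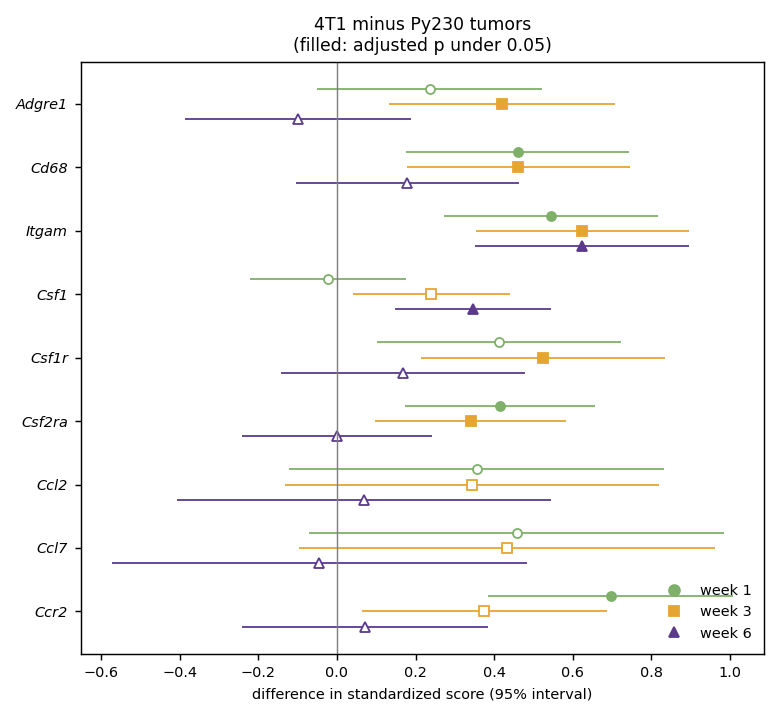
Difference in standardized score between 4T1 and Py230 tumors (horizontal axis) for 9 genes in weeks 1, 3 and 6, with 95% intervals from limma and filled symbols for an adjusted p under 0.05. Itgam is filled at all 3 weeks, from 0.55 to 0.62, and Csf1 only at week 6.

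The number of these tumor calls changed to different degrees when single libraries were left out. The share of all genes called in such fits, or in fits on the libraries of each comparison alone, is not given here. A call lost or gained in them can therefore not be read as particular to the genes named. In week 1 the count of 4 was 2 without 4T1 replicate 1 or without replicate 3 (Ccr2 and Itgam) and 1 without Py230 replicate 1 (Ccr2, while Itgam had adjusted p = 0.0516, limma). In week 3 the count of 5 was 1 without 4T1 replicate 1 (Itgam), 2 without Py230 replicate 1 and 3 without Py230 replicate 2. In week 6 the count was 2 in every such fit. Fitted on the libraries of each comparison alone, Ccr2 was the 1 gene called in week 1, and in week 3 all 5 calls were lost (adjusted p from 0.0874 to 0.251, limma) while Ccl7 was called (adjusted p = 0.041, limma). In week 6 such a fit kept Itgam and Csf1 and added Cd68, Csf1r and a lower Adgre1.

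Against the Matrigel glands of the same strain, most of these genes were called higher in 4T1 tumors at 1 w p.i. and fewer were called later. All 9 had a positive difference at each time point. An unadjusted p under 0.05 (limma) was found for 9, 8 and 5 of them in weeks 1, 3 and 6, and the share of all genes with one is not given here. In week 1, 8 of 9 genes were higher in 4T1 tumors than in BALB/c glands, where 16.6% of all genes differed and 9.91% were higher. Ccl7 differed most, with 0.70, 0.48 and 0.98 in tumors against -0.05, -0.80 and -0.33 in glands, a difference of 1.12 ± 0.26 (adjusted p = 0.00825, limma). Ccl2 was higher by 0.93 ± 0.23 (adjusted p = 0.0113, limma), Ccr2 by 0.76 ± 0.15 (adjusted p = 0.0051, limma) and Itgam by 0.65 ± 0.13 (adjusted p = 0.00586, limma). Csf2ra, Cd68, Csf1r and Adgre1 were higher by 0.60, 0.55, 0.53 and 0.50. Csf1 was the exception with 0.22 ± 0.097 (adjusted p = 0.107, limma), although its groups did not overlap. Gland replicate 2 was the lowest of its group for all 9 genes. Without it, or without 4T1 replicate 3, none of the 9 genes was called, with adjusted p-values (limma) for the 8 genes from 0.0542 to 0.166, and without 4T1 replicate 1 the count was 4. None was called in a fit on the tumor and gland libraries of that week alone (adjusted p from 0.145 to 0.155 for the 8 genes, limma). Cd68, Csf2ra, Ccl2, Ccl7, Ccr2 and Itgam shared 1 adjusted p there (0.145, limma), as the adjustment runs over all genes of the fit. The lost calls can therefore not be read as particular to these 9 genes.

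In week 3 only Adgre1 was called in 4T1 tumors against BALB/c glands, by 0.59 ± 0.14 (adjusted p = 0.0304, limma), where 3.25% of all genes differed and 2.1% were higher. The other 8 genes had differences of 0.16 to 0.87 in the same direction, and 6 of the 9 had tumor libraries above gland libraries without overlap, as did 9.74% of all genes. Fitted on these libraries alone, Adgre1 was not called (adjusted p = 0.479, limma). Adgre1 had adjusted p = 0.368 (limma) without 4T1 replicate 1 and 0.0543, 0.135 and 0.0638 without gland replicates 1, 2 and 3, while without 4T1 replicate 3 the count was 6 and without 4T1 replicate 2 it was 2.

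Ccl7, Ccl2, Itgam and Csf1 were higher in 4T1 tumors than in BALB/c glands at 6 w p.i., 4 of 9 genes, a share near that of all genes, of which 60.1% differed and 38.6% were higher. Ccl2 had 0.44, 0.46 and 0.59 in tumors and -0.14, -0.34 and -0.25 in glands, a difference of 0.74 ± 0.23 (adjusted p = 0.00814, limma). Ccl7 differed by 0.80 ± 0.26 (adjusted p = 0.00987, limma) and missed the threshold without gland replicate 2 (adjusted p = 0.053, limma). Itgam differed by 0.59 ± 0.13 (adjusted p = 0.00044, limma) and Csf1 by 0.42 ± 0.097 (adjusted p = 0.000597, limma). For Adgre1, Cd68, Csf1r, Csf2ra and Ccr2 the tumor and gland libraries overlapped, with differences of 0.085 to 0.32, and without gland replicate 1 Csf1r and Ccr2 were called as well (0.42 and 0.48).

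In the Py230 model few of these genes were called against the glands. In week 1 none of the 9 was called and 1 had an unadjusted p under 0.05 (Ccr2, lower in tumors by -0.34 ± 0.15), where 2 genes in all, 0.00924%, differed between Py230 tumors and C57BL/6 glands. In week 3 limma again called none, and none had an unadjusted p under 0.05, where 19.7% of all genes differed. The groups did not overlap for 5 of the 9 genes at 3 w p.i., with Ccl2 and Ccl7 higher and Cd68, Csf1 and Itgam lower in tumors, and for 37.3% of all genes in either direction. In week 6, Ccl2 and Ccl7 were higher in Py230 tumors, 2 of 9 genes, a share near that of all genes, of which 47.6% differed and 28.8% were higher. Ccl2 had 0.27, 0.47 and 0.53 in tumors and -0.29, -0.19 and -0.22 in glands, a difference of 0.66 ± 0.23 (adjusted p = 0.0212, limma). Ccl7 had 0.27, 0.46 and 0.54 against -0.41, -0.26 and -0.30, a difference of 0.75 ± 0.26 (adjusted p = 0.0186, limma). Neither was called without Py230 replicate 3 or without gland replicate 1 (adjusted p of 0.0541 to 0.0649, limma), and Ccl2 also missed the threshold without Py230 replicate 2 (adjusted p = 0.0562, limma). The other 7 genes had differences of -0.096 to 0.15. Fitted on the libraries of that comparison alone, Csf1 was called higher in Py230 tumors as well (0.15, adjusted p = 0.0141, limma).

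**Figure D3:**
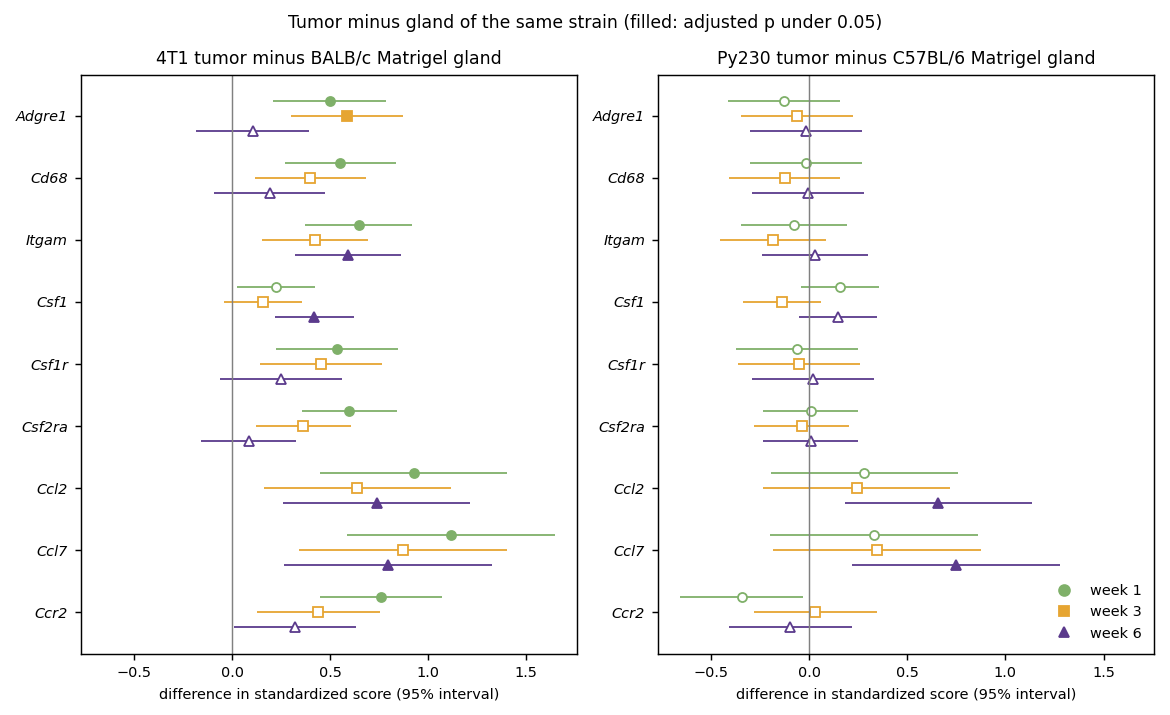
Difference in standardized score between each tumor and the Matrigel gland of its strain (horizontal axis) for 9 genes in weeks 1, 3 and 6, with 95% intervals from limma and filled symbols for an adjusted p under 0.05. In the 4T1 panel 8 genes are filled at week 1, and in the Py230 panel only Ccl2 and Ccl7 at week 6.

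Between the Matrigel glands of BALB/c and C57BL/6 mice limma called none of the 9 genes at any time point, where 3.06%, 3.77% and 3.84% of all genes differed. With an unadjusted p under 0.05 there were 2 genes at 1 w p.i., none at 3 w p.i. and 1 at 6 w p.i. Adgre1 was lower in BALB/c glands by -0.39 ± 0.14 at 1 w p.i., with 1.12, 0.78 and 1.30 against 1.56, 1.37 and 1.45, and this did not pass the adjustment (adjusted p = 0.175, limma). Ccr2 was lower by -0.41 ± 0.15 at 1 w p.i. and by -0.35 ± 0.15 at 6 w p.i. (adjusted p = 0.203 and 0.281, limma), and at 1 w p.i. it was called without BALB/c replicate 3 (adjusted p = 0.0498, limma).

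With this strain difference subtracted, the 4T1 against Py230 difference asks whether the tumors departed from their own glands by different amounts. All 9 genes had a positive value at each time point. An unadjusted p under 0.05 (limma) was found for 7, 6 and 1 of them in weeks 1, 3 and 6, and the share of all genes with one is not given here. In week 1 Ccr2 was called with 1.10 ± 0.21 (adjusted p = 0.0351, limma), 1 of 9 genes, where 0.305% of all genes differed and 0.24% were higher. At week 3, Adgre1 with 0.65 ± 0.20 (adjusted p = 0.0388, limma) and Itgam with 0.61 ± 0.19 (adjusted p = 0.0406, limma) were called, 2 of 9, where 9.15% differed and 2.64% were higher. In week 6 Itgam alone was called with 0.56 ± 0.19 (adjusted p = 0.0272, limma). This was 1 of 9, a share near that of all genes, of which 25.5% differed and 14.4% were higher. These 4 calls were all close to the threshold, and each was lost when single libraries were left out, in 8 of 12 fits for Ccr2, 8 of 12 for Adgre1, 8 of 12 for Itgam at 3 w p.i. and 6 of 12 for Itgam at 6 w p.i. The 3 calls of weeks 1 and 3 were also lost in fits on the libraries of each comparison alone (adjusted p from 0.0814 to 0.193, limma). At 6 w p.i. such a fit added Csf1 (0.27, adjusted p = 0.0113, limma). In the other direction, the count at 1 w p.i. was 4 without 4T1 replicate 2 and 3 without BALB/c replicate 3, and the count at 6 w p.i. was 2 without BALB/c replicate 1.

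Over time, the 4T1 tumors changed between 3 and 6 w p.i. Adgre1 fell by 0.43 ± 0.14 on the score scale (adjusted p = 0.0112, limma), Csf2ra fell by 0.29 ± 0.12 (adjusted p = 0.0392, limma) and Csf1 rose by 0.26 ± 0.097 (adjusted p = 0.0238, limma). Of all genes 53% differed, 34.2% higher and 18.8% lower. The 1 of 9 genes that rose was below the share of all genes, and the 2 that fell were near it. The libraries of both time points did not overlap for these 3 genes, nor for Cd68 and Ccl7, which were lower at 6 w p.i. and not called. The share of all genes without overlap is not given here. Fitted on the libraries of both time points alone, Ccl7 was called lower at 6 w p.i. (-0.28, adjusted p = 0.0267, limma). Without 4T1 replicate 1 of 3 w p.i., Adgre1 had adjusted p = 0.0875 and Csf2ra 0.405 (limma). Csf1 had adjusted p = 0.0571 (limma) with cyclic loess scaling, 0.0784 and 0.128 without replicate 2 or 3 of 3 w p.i. and 0.0618 and 0.0519 without replicate 1 or 2 of 6 w p.i., and Csf2ra had 0.076, 0.0579 and 0.0969 without replicate 1, 2 or 3 of 6 w p.i. and 0.175 in a fit on the libraries of both time points alone. From 1 to 3 w p.i. no gene was called by limma (0.628% of all genes were), 1 had an unadjusted p under 0.05, and without 4T1 replicate 1 of 3 w p.i. Csf2ra (-0.40) and Ccr2 (-0.52) were called. In Py230 tumors limma called none of the 9 from 1 to 3 w p.i. (20% of all genes, 2 with an unadjusted p under 0.05) or from 3 to 6 w p.i. (6.03% of all genes, none with an unadjusted p under 0.05).

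The change of the 4T1 against Py230 difference was tested directly. Limma called none of the 9 genes from 1 to 3 w p.i. (15.3% of all genes, none of the 9 with an unadjusted p under 0.05) and none from 3 to 6 w p.i. (26.7% of all genes, 1 with an unadjusted p under 0.05). That gene was Adgre1, with a change of -0.52 ± 0.20 just outside the threshold (adjusted p = 0.0519, limma), and it was called without 4T1 replicate 3 of 3 w p.i. (adjusted p = 0.0323, limma). Adgre1 was also called with cyclic loess or a robust line as scaling (adjusted p = 0.0353 and 0.0477, limma), among genes with a mean of at least 10 normalized counts (adjusted p = 0.0499, limma) and in a fit on the libraries of that comparison alone (adjusted p = 0.022, limma). The change was 0.11 ± 0.14 for Csf1, and its 95% interval for Itgam was -0.38 to 0.38.

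Other genes of the same pathways included the second ligand of CSF1R, Il34, which was higher in 4T1 tumors by 0.20 at 3 w p.i. (adjusted p = 0.00846, limma) and by 0.42 at 6 w p.i. (adjusted p = 7.02e-07, limma). In Py230 tumors Il34 was below the C57BL/6 glands, by -0.30 at 3 w p.i. and -0.33 at 6 w p.i. (adjusted p = 0.000634 and 3.18e-05, limma). Csf3, which encodes the granulocyte factor G-CSF, had a mean of 0.30 in 4T1 tumors at 6 w p.i. and of -0.94 in Py230 tumors, a difference of 1.25 (adjusted p = 2.34e-07, limma). At the earlier time points its difference was -0.021 and 0.080. Its receptor gene Csf3r was higher in 4T1 tumors at each time point, by 0.66, 0.61 and 0.46. Csf2rb and Csf2rb2, near-identical copies whose reads cannot be separated with certainty, were higher in 4T1 tumors by 0.59 and 0.55 at 1 w p.i., 0.64 and 0.61 at 3 w p.i. and 0.36 and 0.28 at 6 w p.i., all past the threshold.

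Ccl8 and Ccl12 encode further monocyte-attracting chemokines. Ccl8 had means of 2.24 in 4T1 and 1.08 in Py230 tumors at 1 w p.i., and was higher in 4T1 tumors by 1.16 then and by 1.25 at 3 w p.i. (adjusted p = 0.003 and 0.000624, limma). It fell by 1.29 in 4T1 tumors between 3 and 6 w p.i. (adjusted p = 0.00015, limma), and the change of the difference between the models, -1.45, passed as well (adjusted p = 0.00399, limma). Ccl12 was higher in 4T1 tumors by 0.66 in week 1 and by 0.58 in week 3, and its difference of 0.48 at 6 w p.i. did not pass (adjusted p = 0.0625, limma).

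**Figure D4:**
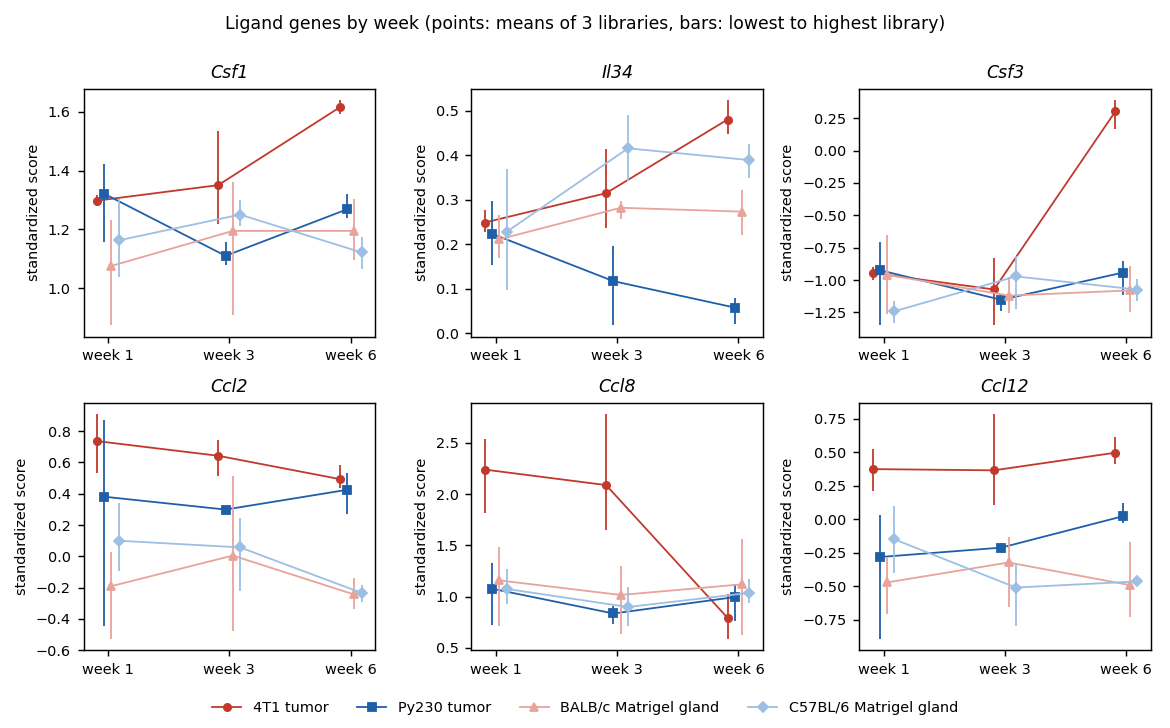
Standardized score (vertical axis) of 6 ligand genes by week post-inoculation for both tumors and both Matrigel glands, with points at the mean of 3 libraries and bars from the lowest to the highest library. Csf1, Il34 and Csf3 are highest in 4T1 tumors at week 6, and the Ccl8 mean of 4T1 tumors is 2.24 at week 1 and 0.79 at week 6.

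By list, 4 of the 11 scored CSF ligand and receptor genes passed as higher in 4T1 tumors in the comparison with Py230 at 1 w p.i., 9 at 3 w p.i. and 6 at 6 w p.i., and none was lower, where 11%, 11.9% and 24.1% of all genes were higher in the same comparisons. Their median differences were 0.22, 0.34 and 0.28. Csf2rb and Csf2rb2 had the smallest p-values at the first 2 time points, and Csf3 and Il34 at the third. Of 18 monocyte chemokine and receptor genes, 8 were higher and 1 lower at 1 w p.i. (led by Ccr2 and Ccr1), 8 and 1 at 3 w p.i. (led by Ccl6 and Cx3cl1) and 3 and 2 at 6 w p.i. (led by Cxcl12 and Cx3cl1). Of 23 genes that act after the CSF receptors, 9 were higher at 1 w p.i. (led by Grb2 and Pik3r5), 11 at 3 w p.i. (led by Pik3r5 and Socs1), and 5 were higher and 1 lower at 6 w p.i. (led by Jak2 and Plcg2). Of the 11 genes of the beta2 integrins and their partners, 8 were higher at 1 w p.i., 4 at 3 w p.i. and 1, Itgam itself, at 6 w p.i., when Itgb2, the partner chain of CD11b, had a difference of 0.40 (adjusted p = 0.0547, limma). At 6 w p.i. the shares of these lists called higher, other than that of the CSF ligands and receptors, lay below the share of all genes.

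Markers of whole cell types moved beside the 9 genes. Of 12 macrophage markers, which include Adgre1, Cd68 and Csf1r, 2 were higher in 4T1 tumors at 1 w p.i., 11 at 3 w p.i. and 1, Lyz2, at 6 w p.i. The counts at 1 and 6 w p.i. were near or below those shares of all genes. The mean score of the macrophage markers in 4T1 tumors was 1.78, 1.68 and 1.47 at the 3 time points, and in Py230 tumors 1.43, 1.18 and 1.26. Of 8 neutrophil markers, 2 were higher at 1 w p.i., 4 at 3 w p.i. and all 8 at 6 w p.i., with a median difference of 1.01 at 6 w p.i. and Ly6g and Ngp in front. Their mean score in 4T1 tumors was -0.90 and -0.82 in weeks 1 and 3, and lay between -0.12 and 0.17 in the 3 libraries of 6 w p.i., when the mean of Py230 tumors was -0.98. Itgam and Csf3r are also made by neutrophils, and the part of the neutrophil markers in the Itgam difference was not tested.

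All 5 T-cell markers and Ptprc were higher in 4T1 tumors at 1 w p.i. (Ptprc by 0.43, adjusted p = 0.0315, limma), where 11% of all genes were higher. In week 6 none of the T-cell markers differed and the Ptprc difference was -0.045. Of the other myeloid lists, 3 of 6 monocyte markers were higher at 1 w p.i., 4 at 3 w p.i. and 1 at 6 w p.i., when 1 was lower, with mean scores of 0.775 to 1.51 in 4T1 and 0.365 to 0.549 in Py230 libraries at 3 w p.i. The part of these markers in the Ccr2 difference was not tested. At both 1 and 3 w p.i. 3 of 6 dendritic cell markers were higher, whereas at 6 w p.i. 2 dendritic cell markers, Cd209a and Flt3, were lower in 4T1 tumors. All 5 adipocyte markers were lower at 6 w p.i. in 4T1 tumors than in BALB/c glands (median -2.17) and in Py230 tumors than in C57BL/6 glands (median -1.73), beside the values of the 9 genes at that time point. The part of adipose tissue in those values was not tested. Against the glands at 6 w p.i., 60.1% of all genes differed in either direction in the 4T1 model and 47.6% in the Py230 model. Between the tumors, 1, 2 and 0 of 3 scored eosinophil markers, 0, 2 and 0 of 4 B-cell markers and 2, 2 and 1 of 3 NK-cell markers were higher in 4T1 tumors in weeks 1, 3 and 6, 1 B-cell marker was lower in weeks 3 and 6 and 1 NK-cell marker in week 6. Of 6 epithelial markers 0, 2 and 2 were lower, and no skeletal muscle marker was called between the tumors. Of all genes, 19.4%, 30.3% and 40.8% differed between the tumors in weeks 1, 3 and 6, and 11%, 11.9% and 24.1% were higher in 4T1 tumors. Several of these small lists, and the monocyte markers at 6 w p.i., had counts near or below those shares.

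**Figure D5:**
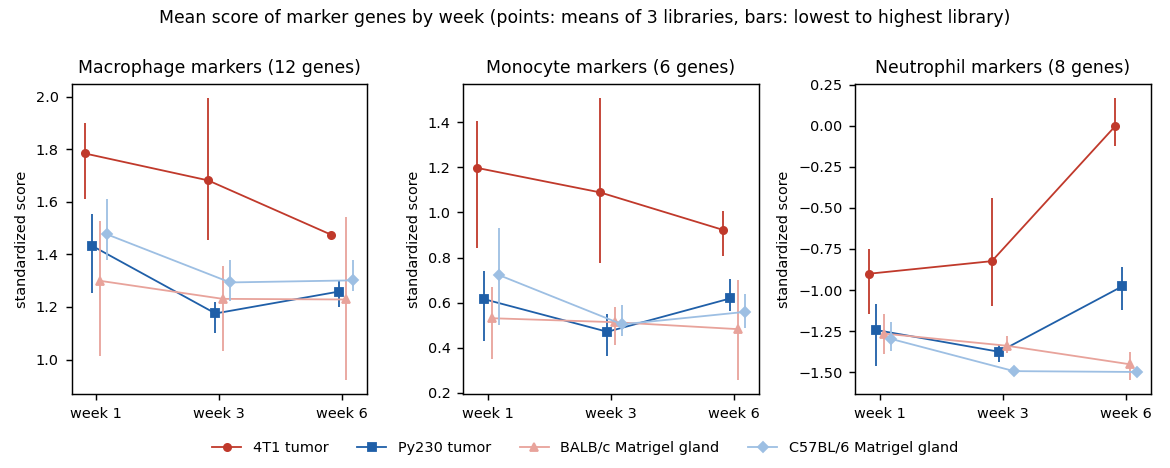
Mean standardized score (vertical axis) of 12 macrophage, 6 monocyte and 8 neutrophil markers by week post-inoculation, with points at the mean of 3 libraries and bars from the lowest to the highest library. Macrophage markers in 4T1 tumors go from 1.78 at week 1 to 1.47 at week 6, and neutrophil markers are highest in 4T1 tumors at week 6.

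Over all 36 libraries, among 13567 genes with a mean of at least 100 normalized counts, the genes most like Adgre1 were Clec4a1 (Pearson r = 0.947, Spearman rho = 0.896), Nfam1 (r = 0.945, rho = 0.875) and Dock2 (r = 0.939, rho = 0.906). For Csf1 they were Anxa3 (r = 0.886, rho = 0.849), Bmp1 (r = 0.866, rho = 0.777) and Msn (r = 0.857, rho = 0.807). Ccl2 was most like Ccl7 (r = 0.978, rho = 0.971), followed by Plek (r = 0.901, rho = 0.917) and Bcl2a1b (r = 0.893, rho = 0.907). Within the 9 genes, Adgre1 and Csf1 had r = 0.355, and Csf1r had r = 0.913 with Ccr2 and 0.890 with Adgre1. These values describe libraries that share groups, tissue make-up and standardization, and carry no test.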

How the data were processed

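Stranded libraries from 36 flash-frozen tumors or glands were sequenced in pairs of 75-base reads. Per the labels and the study methods, alignment was by STAR against mm10, summariseOverlaps gave gene counts, which the authors normalized with DESeq2. Tool versions and the gene annotation are not given in the sources used here. The expression values deposited by the authors are scores, standardized within each library to a mean of 0 and an SD of 1 by a step no source describes. Depth cannot be read from them, so no counting interval was computed. The authors' mean normalized count per gene, identical in the 3 deposited comparison tables, which do not list the libraries averaged, was used for average levels and as a filter. The deposited columns of fold changes, test statistics and p-values, and the hallmark table, were not used.

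Samples were grouped by the labels, and every column was mapped to a sample. Nothing in the sources gives batches or ties libraries to animals, so p-values measure the spread between these libraries. The fits used limma 3.58.1 under R 4.3.3 (1 mean per group over all 36 libraries, trend and robust options) and adjusted by Benjamini-Hochberg over 21650 genes, with a threshold of 0.05, and the code was tested on simulated data. Genes were matched by Ensembl identifier and symbol. A second identifier with the symbol Itgam had no score. Members, lists and tests were chosen with earlier results of these data known, so no pattern here is independent support for those results. Text names the 10 members, Il34, Csf2rb, Csf2rb2, Csf3, Csf3r, Ccl8 and Ccl12, for each list described the 2 genes with the smallest p-value (lists are described by counts and medians, with no test), and for 3 members the 3 genes with the highest Pearson r. Promoters are RefSeq windows of 300 bases on GRCm38.p6, with 6 of 10 members described and Csf1r left out of this step. Alternatives were other library scalings, a filter at a mean of 10 normalized counts, no trend or robust option, fits on the libraries of one comparison, a replicate block, and leaving out each library.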

Additional observations from a re-analysis of the deposited data

Results flagged for a closer look

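In 4 cases the departure of a tumor from the Matrigel glands of its own strain differed between the 4T1 and Py230 models by a direct test in limma of the difference between both effects. Ccr2 at 1 w p.i. departed by 1.10 score units more in the 4T1 model (adjusted p = 0.0351, limma), as 4T1 tumors lay above their glands by 0.76 and Py230 tumors below theirs by -0.34. Adgre1 at 3 w p.i. departed by 0.65 more (adjusted p = 0.0388, limma), with 0.59 in the 4T1 model and -0.063 in the Py230 model. Itgam departed by 0.61 more at 3 w p.i. (adjusted p = 0.0406, limma) and by 0.56 more at 6 w p.i. (adjusted p = 0.0272, limma), with 0.42 and 0.59 in the 4T1 model and -0.19 and 0.029 in the Py230 model. Each of these calls was lost in at least 6 of the 12 fits that left out a single library, while the direction stayed the same in all of them. Groups of 3 libraries are too small to be examined for single outlying libraries by a fixed criterion.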

How the results depend on the processing

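Over all alternatives, 2538 values were recomputed for the 9 genes and no called difference changed sign. Counts under alternatives cover the 9 genes only, and the share of all genes called in each such fit is not given here. Of 33 calls, 6 were kept under every alternative, namely Ccr2 at 1 w p.i. and Csf1 and Itgam at 6 w p.i. between the tumors, and Csf1, Ccl2 and Itgam at 6 w p.i. between 4T1 tumors and BALB/c glands. Fitting only the libraries of one comparison, which leaves fewer libraries to estimate the spread, moved 9 of 21 counts by more than 1.5 times. The number of genes called between 4T1 and Py230 tumors was then 1 at 1 w p.i. (Ccr2), 1 at 3 w p.i. (Ccl7, with all 5 reported calls lost) and 5 at 6 w p.i. (Cd68, Csf1r and a lower Adgre1 besides Itgam and Csf1), between 4T1 tumors and BALB/c glands 0 at 1 w p.i. and 0 at 3 w p.i., with the strain difference subtracted 0, 0 and 2, and for the change of the tumor difference from 3 to 6 w p.i. 2 (Adgre1 and Ccl7). Cyclic loess and the robust line each gave 2 calls between 4T1 tumors and BALB/c glands at 3 w p.i. and 1 for the change from 3 to 6 w p.i., and the filter at 10 normalized counts gave 1 for that change, Adgre1 in each case. The cause was not tested. Replicate numbers were shared by the labels of all groups, but 17 of 54 same-numbered pairs deviated together with a correlation above 0.1 (range -0.543 to 0.789), so they were not taken as pairs. The replicate block gave 1 call for the change from 3 to 6 w p.i. (Adgre1, adjusted p = 0.0491, limma), added Csf1r between the tumors at 1 w p.i. (adjusted p = 0.0459, limma) and moved no other count by more than 1.5 times.

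Leaving out each library in turn gave ranges of 1 to 5, 1 to 7 and 2 to 2 calls between the tumors in weeks 1, 3 and 6, 0 to 9, 0 to 6 and 3 to 6 between 4T1 tumors and BALB/c glands, 0 to 2 between Py230 tumors and C57BL/6 glands at 6 w p.i., 0 to 1 between the glands at 1 w p.i., and 0 to 4, 0 to 2 and 0 to 2 with the strain difference subtracted. For 4T1 tumors the ranges were 0 to 2 from 1 to 3 w p.i. and 1 to 2 from 3 to 6 w p.i., and for the change of the tumor difference from 3 to 6 w p.i. 0 to 1. In fits without a library its group is assumed to vary like the others. Csf2, with a mean of 3.23 normalized counts and no score, is beyond what these values can resolve.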

Other observations

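In the order of group means, Ccr2 of the C57BL/6 glands at 1 w p.i. (mean 1.49) was in place 3, above Py230 tumors of every time point (means of 1.14, 1.13 and 1.20). These glands did not overlap the next group in the order. Their lowest library (1.36) was below the highest of 4T1 tumors at 6 w p.i. (1.37) and of BALB/c glands at 1 w p.i. (1.40), so they overlapped these lower-placed groups. Cx3cr1, the receptor gene of patrolling monocytes and many tissue macrophages, was chosen for mention after its values were seen. It was higher at 6 w p.i. in 4T1 tumors than in BALB/c glands by 0.87 (adjusted p = 4.45e-05, limma), where 38.6% of all genes were higher. In Py230 tumors it was higher than in C57BL/6 glands by 0.59 (adjusted p = 0.00308, limma), where 28.8% of all genes were higher. Adgre1 and Csf1r were not called in these 6 w p.i. comparisons in either model. Between 3 and 6 w p.i. Cx3cr1 rose by 0.98 in 4T1 tumors (adjusted p = 1.27e-05, limma), where 34.2% of all genes were higher. Adgre1 and the mean score of the macrophage markers went the other way between these time points.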
